A study of Homo sapiens with 18 samples.

Results

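Lysosome and autophagy genes were followed by RNA-seq in MDA-MB-231 cells, a triple negative breast cancer line, across the 6 conditions of a study of the tumor suppressor GPS2. The set held 38 genes taken by symbol, namely the transcription factors TFEB, TFE3 and MITF, 10 lysosomal hydrolases and their activators, 7 proteins of the lysosomal membrane and of cholesterol export, 4 subunits of the proton pump, 9 autophagy genes and 5 genes of lysosomal nutrient sensing. All 38 were found among the 57448 genes of the count table, and 37 of them were among the 15587 genes tested, for which 3 or more of the 18 libraries had to reach 1 CPM (a count relative to the depth of its library). GPNMB, a membrane glycoprotein, did not reach that level and was not tested. The groups were untreated parental cells (MB231-WT), untreated GPS2 knockout cells made with sgRNA set 1 (KO1) or sgRNA set 2 (KO2), untreated cells with myristoylated AKT (MB231-myrAKT), and KO1 and KO2 cells given 10 µM of the allosteric AKT inhibitor MK2206 for 4 h (KO1+MK and KO2+MK), with 3 replicates each. All cells were grown in high glucose medium with serum. Both KO lines were puromycin-selected pools of edited cells rather than clones, the guides having been aimed at exons 2 and 6 of GPS2 and delivered with Cas9 by lentivirus. MB231-myrAKT cells had received a retroviral transgene, and no group of MB231-WT or MB231-myrAKT cells was treated with MK2206.

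Lysosomes are acidic organelles in which hydrolases break down material delivered by endocytosis and autophagy. TFEB, TFE3 and MITF bind a short E-box in the promoters of many lysosome and autophagy genes, and they are kept in the cytoplasm when mTORC1, which is active on the lysosomal surface through the RRAG GTPases and FLCN with its FNIP partners, phosphorylates them. AKT lies upstream of mTORC1 and also restrains the FoxO factors, which act on autophagy genes as well.

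The letters CACGTG, the core of this E-box, read the same on both strands and were searched in the promoters of RefSeq on GRCh38.p14, from 250 bases before to 50 bases after each annotated start. Of the 38 genes, 28 had an entry. CACGTG stood in 11 of these 28 promoters (39.3%), in 18 of 113 promoters of other lysosome and autophagy genes (15.9%) and in 2030 of all 27305 promoters (7.43%). The longer form TCACGTGA, which contains it, was present in 5 of 28 promoters (17.9%), in 10 of 113 promoters of the other lysosome and autophagy genes (8.85%) and in 1.04% of all promoters. The 11 genes were LAMP1, with 6 copies, FNIP1, GAA, MCOLN1 and CTSA, with 2 copies each, and RRAGC, NEU1, CTSD, CD63, ATG14 and ATP6V0D1. A match describes the letters of a window and is no evidence of binding. The stretches below are those of 6 of these genes, 1 or more from each of 4 roles and all with RNA levels given library by library in the results, written 5′ to 3′ on the strand of the gene with CACGTG in capitals.
MCOLN1, chr19:7522571-7522600, plus strand, first copy, 41 bases before the start: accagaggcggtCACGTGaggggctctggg
MCOLN1, chr19:7522598-7522623, plus strand, second copy, 14 bases before the start: gggctaccgggtCACGTGaccgaggc
GAA, chr17:80101493-80101522, plus strand, first copy, 76 bases before the start: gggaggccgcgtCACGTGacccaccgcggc
GAA, chr17:80101538-80101567, plus strand, second copy, 31 bases before the start: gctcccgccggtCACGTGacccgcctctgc
ATP6V0D1, chr16:67481199-67481228, minus strand, 59 bases before the start: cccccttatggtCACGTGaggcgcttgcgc
CTSA, chr20:45891281-45891310, plus strand, first copy, 42 bases before the start: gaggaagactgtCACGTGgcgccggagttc
CTSA, chr20:45891298-45891327, plus strand, second copy, 25 bases before the start: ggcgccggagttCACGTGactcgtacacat
NEU1, chr6:31862930-31862959, minus strand, 126 bases before the start: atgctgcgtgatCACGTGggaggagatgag
FNIP1, chr5:131797175-131797204, minus strand, first copy, 175 bases before the start: ccccgcccctgcCACGTGacgggacccgcc
FNIP1, chr5:131797094-131797123, minus strand, second copy, 94 bases before the start: tccgcgcgccgcCACGTGatgcggcccccc
The paired stretches of CTSA overlap, as do those of MCOLN1 at their ends.

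Libraries held between 23419198 and 39319910 reads counted on genes. The 6 treated libraries (23419198 to 29939536) were all shallower than the 12 untreated ones (30287210 to 39319910). VIM, CD44, EGFR, KRT18 and KRT19, genes of this mesenchymal type of line, were present in every group. ESR1 stayed at or below 1.38 CPM, that being in MB231-myrAKT, and PGR at or below 0.137 CPM, in MB231-WT. With ERBB2 added, the 3 receptor genes summed to 80.57 to 95.3 CPM per library. Nearly all of this was ERBB2, whose RNA was thus present in every library. Counts of GPS2 could not check the knockout labels, since the edits lie in exons 2 and 6 while reads were counted over the whole gene, and every stretch of 75 bases of its canonical transcript also lies in other genes. GPS2 averaged 4.57 ± 0.278 CPM in MB231-WT, 4.50 ± 0.0364 in KO1 and 6.04 ± 0.123 in KO2 (SD, n = 3). AKT1, whose counts can include reads of the transgene, read 135, 134 and 136 CPM in MB231-WT and 242, 232 and 218 CPM in MB231-myrAKT (log2 fold change 0.77, adjusted p = 4.27e-09). Nothing in the sources states that replicates were separate cultures, so the p-values measure the spread between these libraries, which may be technical.

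In MB231-WT cells TFEB ranked next to last among the 38 genes. Divided by the length of their exons, levels ran from 250.2 ± 18.6 CPM per kb for PSAP, the precursor of the saposins that activate sphingolipid hydrolases, to 0.170 ± 0.0176 CPM per kb for GPNMB (SD, n = 3). CD63, a tetraspanin of late endosomes, followed at 100.2 ± 6.03, then NPC2, which hands cholesterol to NPC1, at 80.7 ± 5.22 and the aspartic protease CTSD at 78.8 ± 10.0 CPM per kb, and the spreads of the last pair overlapped. TFE3 stood 10th at 19.7 ± 0.563 CPM per kb, MITF 25th at 8.19 ± 0.435 and TFEB 37th at 0.920 ± 0.0256, so that the order within the family was clear of the spread between replicates.

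**Figure D1:**
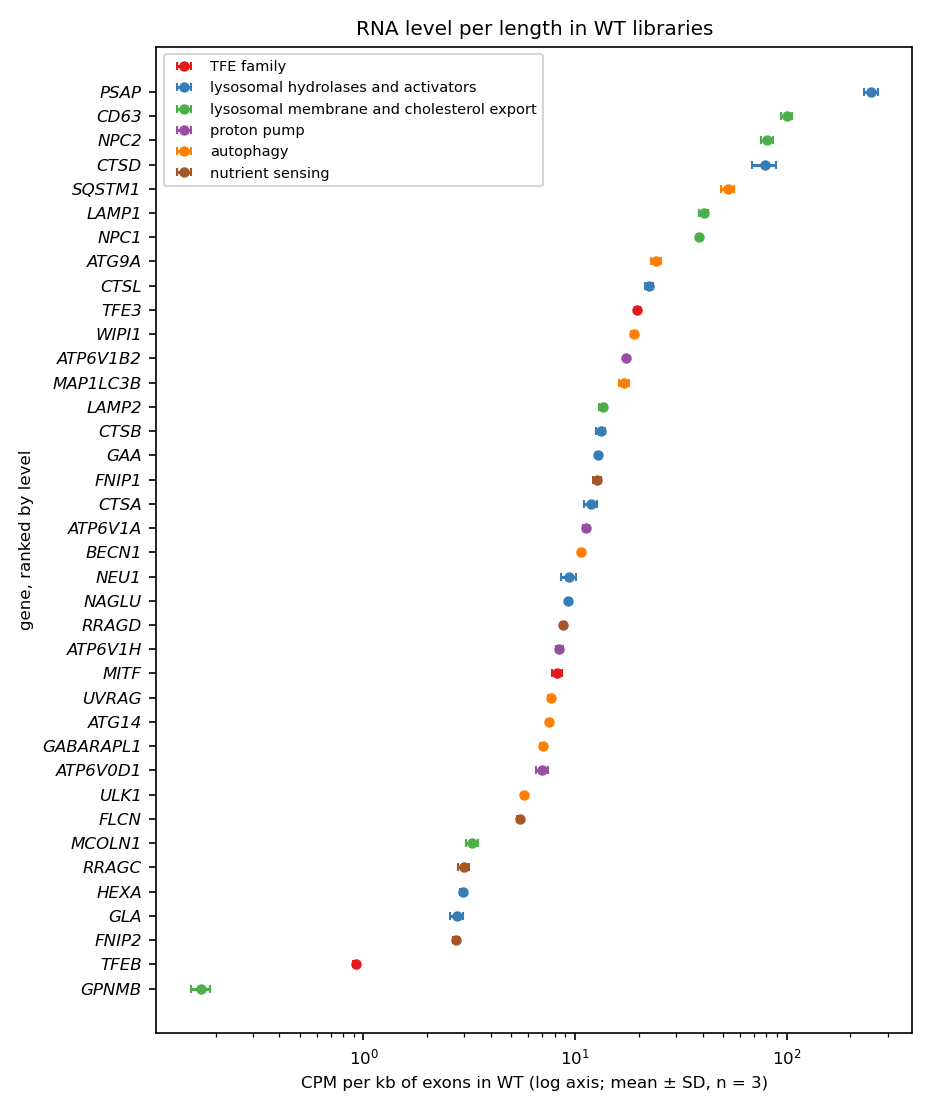
RNA level of each of the 38 genes per kb of exons in MB231-WT cells, on a log axis in CPM per kb (points, mean; bars, SD; n = 3), coloured by role and ordered by level. PSAP stands at the top at 250.2 CPM per kb, and TFEB (0.920) and GPNMB (0.170) at the bottom.

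TFEB was the member whose RNA differed most between MB231-GPS2KO and MB231-WT cells, and MITF was higher. TFEB (chromosome 6, 41683978 to 41736259, minus strand, GENCODE release 44) read 6.19, 6.35 and 6.00 CPM in the 3 MB231-WT libraries, 1.66, 1.81 and 2.13 CPM in KO1 and 1.60, 1.37 and 1.61 CPM in KO2. Every KO library lay below every MB231-WT library, and TFEB fell by 1.88 on the log2 scale (SE 0.118, adjusted p = 3.25e-07), a 3.69-fold difference. In MB231-myrAKT cells TFEB read 4.52, 5.81 and 4.59 CPM, below MB231-WT in all 3 libraries but short of the threshold (log2 fold change -0.32, adjusted p = 0.0294). With MK2206 it read 2.33, 1.97 and 2.41 CPM in KO1+MK and 1.88, 2.38 and 2.61 CPM in KO2+MK, and with the lines pooled it did not pass (log2 fold change 0.44, adjusted p = 0.00936). In KO2 each treated library was above each untreated one, and in KO1 they overlapped. The log2 change with MK2206 was 0.28 in KO1 and 0.61 in KO2, and the difference between these was not significant (adjusted p = 0.777). As a library came from a whole culture, less TFEB RNA in every cell and fewer cells with TFEB RNA could not be told apart.

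MITF, which drives melanocyte and lysosome genes, moved the other way. MITF (chromosome 3, 69739456 to 69968336, plus strand) read 64.01, 57.6 and 60.8 CPM in MB231-WT, 86.95, 81.9 and 91.7 in KO1 and 93.5, 90.3 and 89.5 in KO2, so that it rose in MB231-GPS2KO cells (log2 fold change 0.53, SE 0.0492, adjusted p = 3.94e-06). It read 44.6, 41.9 and 40.5 CPM in MB231-myrAKT, below every other library of untreated cells, and fell there (-0.53 on the log2 scale, adjusted p = 7.76e-07). After 4 h of MK2206 it read 49.4, 57.2 and 58.2 CPM in KO1+MK and 62.3, 58.7 and 61.4 CPM in KO2+MK, lower than in all untreated KO libraries (log2 fold change -0.60, adjusted p = 5.73e-07). Untreated KO, treated KO and MB231-WT cells thus gave group means of 88.96, 57.9 and 60.8 CPM.

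TFE3 (chromosome X, 49028726 to 49043410, minus strand) passed the test in none of the comparisons made. It read 82.9, 80.2 and 84.9 CPM in MB231-WT, 85.1, 80.8 and 86.8 in KO1, 75.1, 72.5 and 77.6 in KO2, 75.6, 75.03 and 71.8 in MB231-myrAKT, 68.6, 74.7 and 77.02 in KO1+MK and 72.5, 65.8 and 66.5 in KO2+MK. Its log2 fold changes were -0.07 (95% interval -0.20 to 0.05) for KO against WT, -0.16 (-0.25 to -0.07) for myrAKT against WT and -0.15 (-0.25 to -0.04) for treated against untreated KO cells, with adjusted p-values of 0.289, 0.00436 and 0.0251. With the KO line as a covariate the last passed (adjusted p = 0.000757).

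GPNMB, a glycoprotein gene that MITF and TFE3 are known to activate, was near the limit of detection, with 33 to 38 counts per MB231-WT library and 6 to 26 counts in each of the other libraries. This came to 1.09, 1.04 and 0.888 CPM in MB231-WT, 0.501, 0.703 and 0.415 in KO1, 0.458, 0.335 and 0.464 in KO2, 0.632, 0.417 and 0.467 in MB231-myrAKT, 0.583, 0.482 and 0.447 in KO1+MK and 0.303, 0.216 and 0.268 in KO2+MK. The MB231-WT libraries were the highest 3 of the 18, with no test. Of the 6 melanocyte genes examined because MITF and GPNMB are melanocyte genes too, TYR and SOX10 had no count in any library and the list summed to 2.37 to 3.08 CPM in MB231-WT, 4.33 to 4.64 in MB231-myrAKT and 1.17 to 2.00 in the untreated KO libraries. PMEL, a pigment granule protein, read 2.03, 1.98 and 1.67 CPM in MB231-WT and 3.31, 3.21 and 3.06 CPM in MB231-myrAKT.

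**Figure D2:**
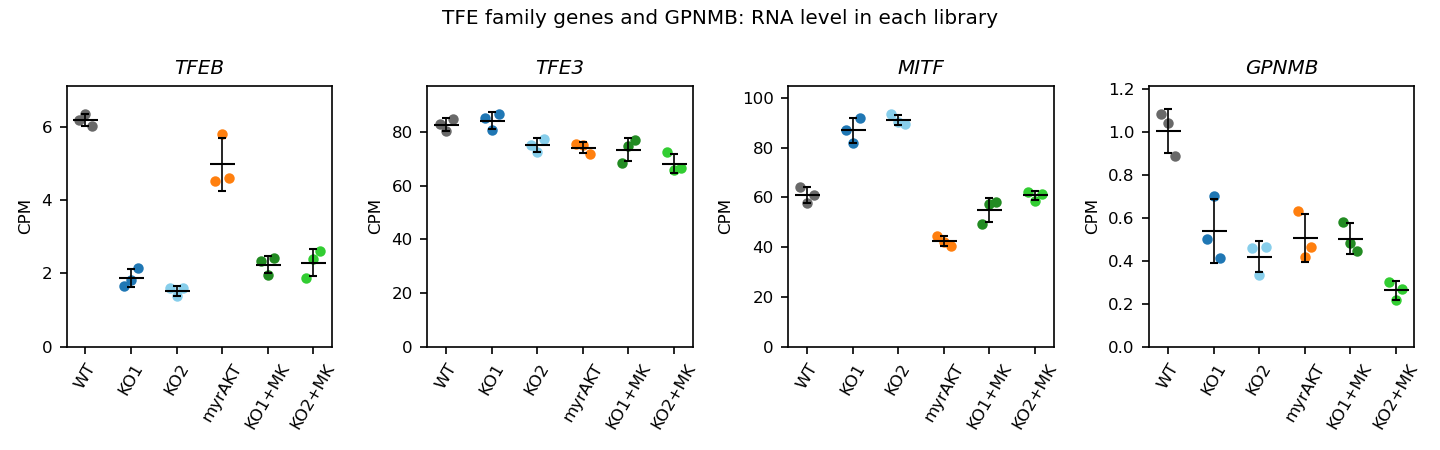
Level in CPM of TFEB, TFE3, MITF and GPNMB in each of the 18 libraries by condition (points), with the mean and SD of each group (n = 3). TFEB is at most 2.61 CPM in every KO library, treated or not, and at least 4.52 CPM in every MB231-WT and MB231-myrAKT library, while MITF is highest in untreated KO1 and KO2 and lowest in MB231-myrAKT.

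Across the 37 genes tested, loss of GPS2 went with both rises and falls. Genes were called at an adjusted p of at most 0.001 over all 15587 genes. In MB231-GPS2KO cells, with KO1 and KO2 pooled, 7 of the 37 rose (18.9%, against 15.5% of all genes tested) and 11 fell (29.7%, against 16.6%), and the median log2 fold change was -0.073, against -0.003 over all genes. The members were more highly expressed than the usual gene, with a median of 68.2 CPM against 21.2 CPM for all genes tested, and the part of this in the counts of calls was not tested. With a fold change of at least 1.5 as well, 0 rose and 4 fell, namely TFEB, GABARAPL1, WIPI1 and CTSB, against 4.07% and 8.59% of all genes. At an adjusted p of at most 0.05 instead, 11 rose and 16 fell, against 29.3% and 30.4%. Taken singly, KO1 gave 9 rises and 12 falls against MB231-WT (20.5% and 21.3% of all genes), and KO2 gave 9 rises and 14 falls (20.8% and 22.2%). With the fold change added, KO1 gave 0 rises and 3 falls (4.59% and 9.28% of all genes) and KO2 gave 1 rise and 5 falls (5.56% and 11.2%). Of the members that did not pass with the lines pooled, 8 passed in a single line, namely ATP6V1B2 and NPC1 in both, GLA, LAMP2 and SQSTM1 in KO1, and NAGLU, NEU1 and UVRAG in KO2. Conversely, HEXA (-0.17, adjusted p = 0.00203) and RRAGC (0.29, adjusted p = 0.00133) passed with the lines pooled and in KO2 but not in KO1. With KO1 and KO2 fitted as separate groups, 10 members rose and 16 fell, all 18 pooled calls among them. The share of all genes called by that fit was not counted, so its larger numbers are not read as a result about the members. Without replicate 1 of MB231-WT, 3 members rose rather than 7, the 4 lost being MCOLN1 (adjusted p = 0.00131), FNIP1, FNIP2 and RRAGC, and HEXA was lost from the falls (adjusted p = 0.0017).

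In MB231-myrAKT cells 11 of the 37 rose (29.7%, against 12.7% of all genes tested) and 7 fell (18.9%, against 17.3%), with a median log2 fold change of 0.058 against 0.016 over all genes. With a fold change of at least 1.5, 2 rose (NEU1 and ATP6V0D1) and 2 fell (WIPI1 and FNIP1), against 4.94% and 8.83% of all genes. Without replicate 2 of MB231-myrAKT, 7 members rose rather than 11. Both comparisons use the same MB231-WT libraries, so their values are set side by side below and the difference was tested between MB231-GPS2KO and MB231-myrAKT libraries directly. In that test 7 of 37 members were higher in MB231-GPS2KO (18.9%, against 19.1% of all genes) and 18 were lower (48.6%, against 16.7%), with a median log2 difference of -0.281 against 0.002 over all genes. With a fold change of at least 1.5, 2 were higher (MITF and FNIP1) and 9 lower (TFEB, CTSA, CTSB, CTSL, GAA, HEXA, PSAP, GABARAPL1 and ULK1), against 6.81% and 9.39% of all genes. Without replicate 2 or 3 of MB231-myrAKT, 4 were higher rather than 7.

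**Figure D3:**
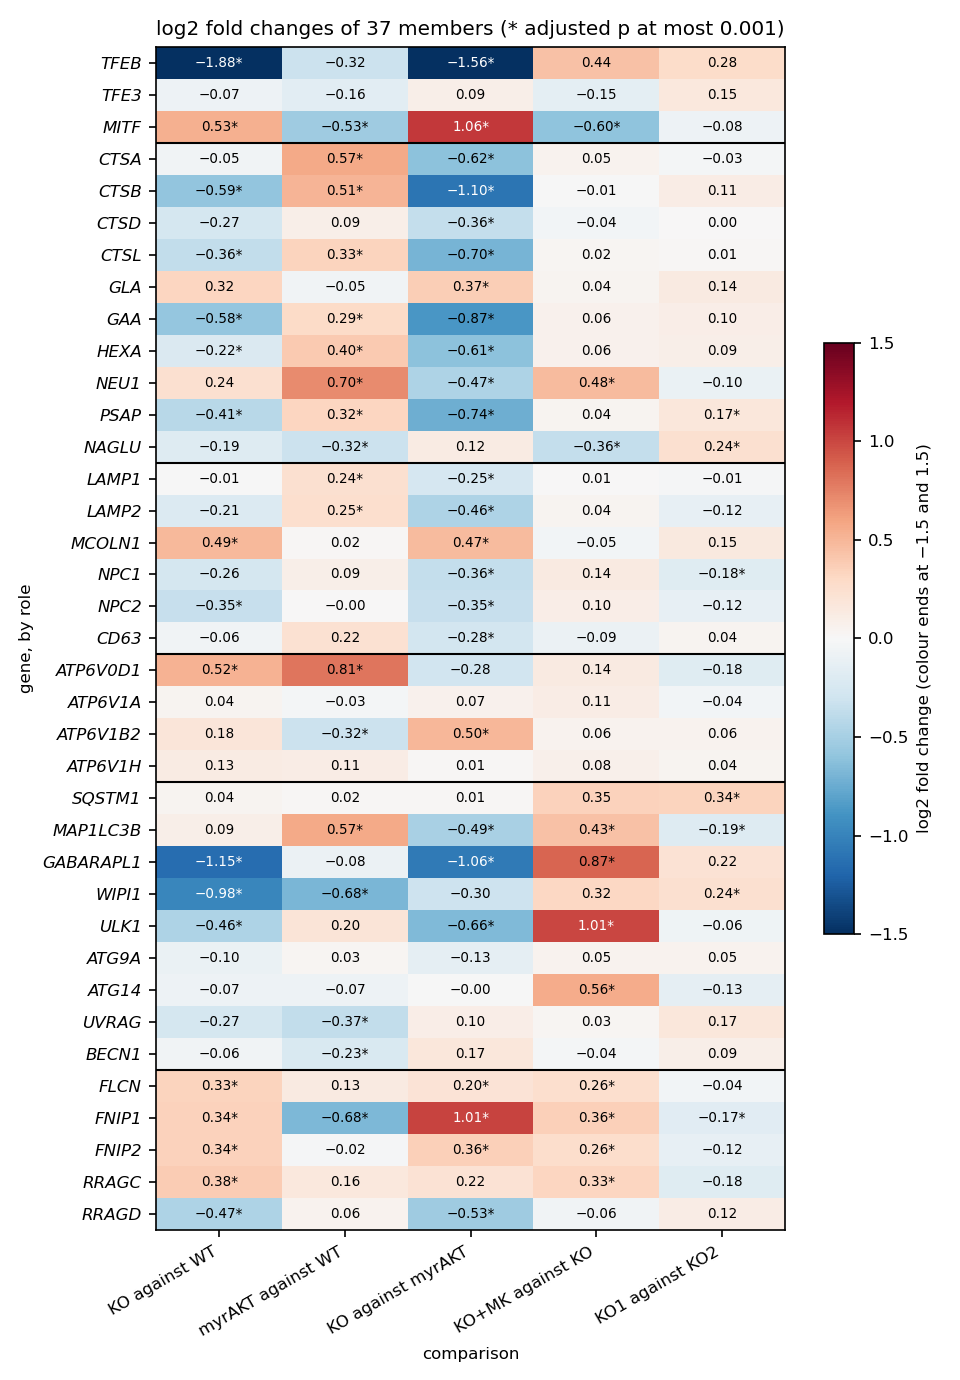
Log2 fold changes of the 37 genes tested, grouped by role, in 5 comparisons (columns). Blue is lower and red is higher in the first named group, the colour ends at -1.5 and 1.5, and an asterisk marks an adjusted p of at most 0.001. The hydrolase rows are mostly blue in the first column and red in the second, and TFEB carries the most negative value, -1.88.

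Lysosomal hydrolases were lower in MB231-GPS2KO than in MB231-myrAKT cells in the direct test, where 8 of 10 were lower and 1 (GLA) was higher (against 16.7% and 19.1% of all genes tested), with a median log2 difference of -0.618. Against MB231-WT, 5 fell in MB231-GPS2KO cells (CTSB, CTSL, GAA, HEXA and PSAP) and 0 rose by the edgeR test, with 2 higher at an unadjusted p under 0.05 and 1 by DESeq2 (against 16.6% lower and 15.5% higher of all genes). In MB231-myrAKT cells 7 rose (CTSA, CTSB, CTSL, GAA, HEXA, NEU1 and PSAP) and 1 fell (NAGLU), against 12.7% and 17.3% of all genes. The median log2 fold change of the 10 was -0.242 and 0.326 in turn. CTSB, a cysteine protease (cathepsin B), read 131, 142 and 143 CPM in MB231-WT, 99.03, 96.3 and 95.9 in KO1, 92.02, 86.6 and 90.04 in KO2 and 198, 204 and 193 in MB231-myrAKT. These 3 kinds of cells did not overlap, and the log2 difference of CTSB, MB231-GPS2KO minus MB231-myrAKT, was -1.10 (SE 0.0412, adjusted p = 5.09e-09). GAA, the acid alpha-glucosidase that degrades glycogen, read 65.8, 67.6 and 68.7 CPM in MB231-WT, 47.7, 47.8 and 46.9 in KO1, 44.8, 42.4 and 44.4 in KO2 and 80.9, 87.4 and 79.4 in MB231-myrAKT. The groups were again apart, with log2 fold changes against MB231-WT of -0.58 for the knockout (adjusted p = 1.06e-06) and 0.29 for the transgene (adjusted p = 0.000114).

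NEU1, the lysosomal sialidase, and CTSA, the protective protein that stabilises it, rose in MB231-myrAKT cells. NEU1 read 41.8, 49.2 and 44.4 CPM in MB231-WT, 51.9, 50.2 and 54.6 in KO1, 54.9, 52.9 and 59.3 in KO2 and 78.8, 71.6 and 71.2 in MB231-myrAKT. All MB231-myrAKT libraries were above the others of untreated cells (log2 fold change 0.70, SE 0.0605, adjusted p = 2.45e-07) and NEU1 missed the threshold in MB231-GPS2KO cells (0.24, adjusted p = 0.00538), and the difference between these 2 kinds of cells was significant (log2 -0.47, adjusted p = 1.47e-05). CTSA read 93.8, 107 and 106 CPM in MB231-WT, 101, 98.01 and 99.2 in KO1, 99.8, 99.4 and 103 in KO2 and 158, 155 and 145 in MB231-myrAKT. The KO libraries lay among those of MB231-WT (log2 fold change -0.05, 95% interval -0.14 to 0.04), and MB231-myrAKT stood above both (0.57, adjusted p = 7.67e-07). NAGLU, which degrades heparan sulfate, was lowest in treated KO cells. It read 27.03, 27.1 and 27.7 CPM in MB231-WT, 26.4, 26.9 and 25.6 in KO1, 22.7, 21.7 and 22.0 in KO2, 21.6, 23.8 and 20.6 in MB231-myrAKT, 19.5, 19.3 and 20.5 in KO1+MK and 18.7, 16.2 and 17.5 in KO2+MK.

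Of the other hydrolases, PSAP averaged 779.5 ± 57.9 CPM in MB231-WT, 631 ± 10.4 in KO1, 557 ± 25.2 in KO2 and 978 ± 56.3 in MB231-myrAKT (SD, n = 3). The cysteine protease CTSL changed by -0.36 on the log2 scale with the knockout and by 0.33 with the transgene, and HEXA, the alpha subunit of beta-hexosaminidase, -0.22 and 0.40, all past the threshold. CTSD (-0.27, adjusted p = 0.00573, and 0.09, adjusted p = 0.342) and the alpha-galactosidase GLA (0.32, adjusted p = 0.00175, and -0.05, adjusted p = 0.581) passed in neither comparison with MB231-WT, although GLA rose in KO1 taken singly (0.39, adjusted p = 4.95e-05). For CTSD, 60.8% of the stretches of 75 bases of its canonical transcript lie in other annotated genes, 1 of them an unnamed gene on the same strand, so its counts are uncertain, and 15.1% do for HEXA. Macrophages are rich in lysosomal hydrolases, and a list of 6 macrophage genes, none of which was without counts in all libraries, summed to 4.49 to 5.39 CPM in MB231-myrAKT against 2.99 to 4.37 in MB231-WT and 2.35 to 3.08 in the untreated KO libraries. The part of this in the hydrolase values was not tested.

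**Figure D4:**
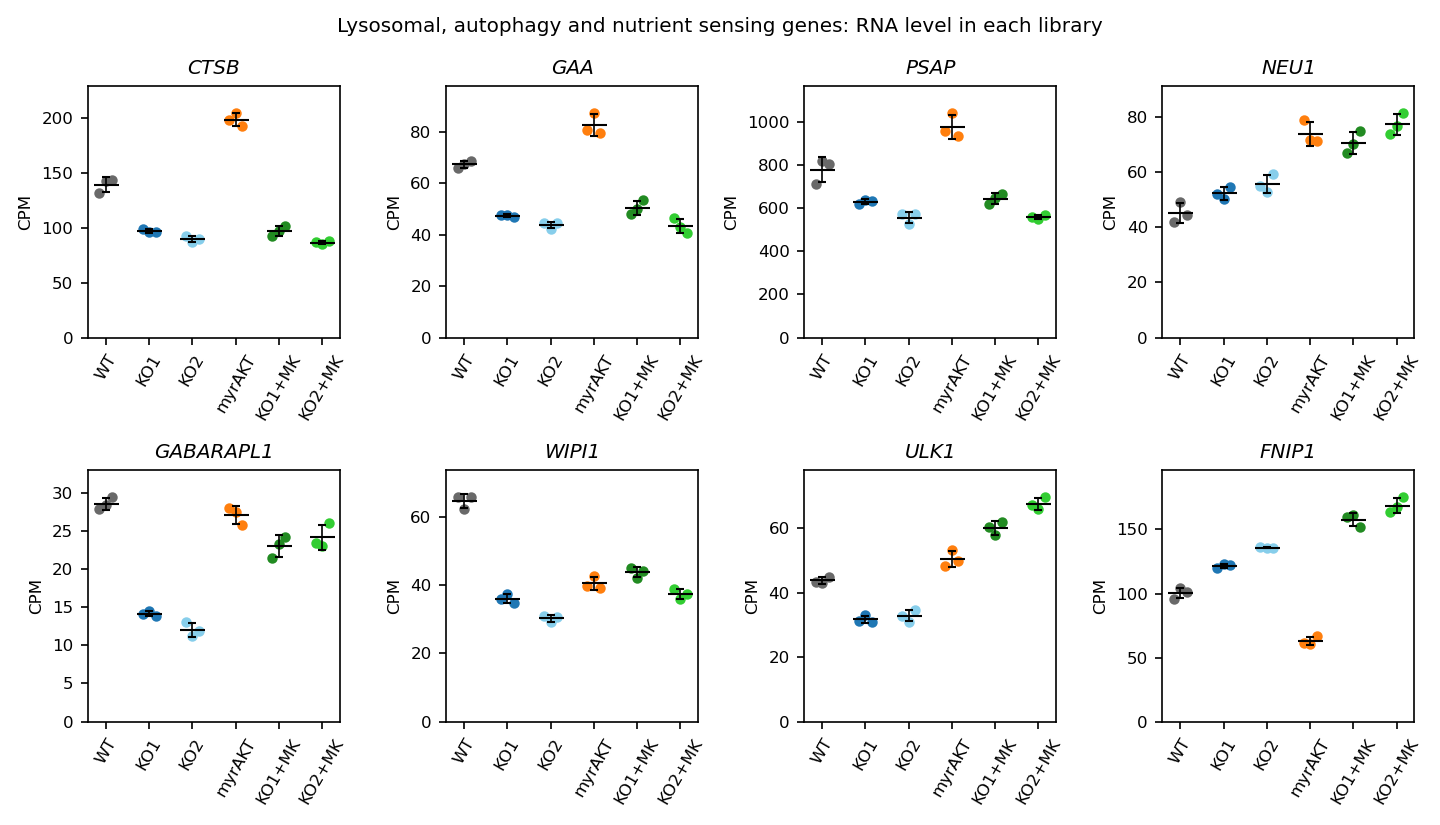
Level in CPM of CTSB, GAA, PSAP, NEU1, GABARAPL1, WIPI1, ULK1 and FNIP1 in each library by condition (points), with the mean and SD of each group (n = 3). CTSB, GAA and PSAP are lowest in the KO groups and highest in MB231-myrAKT, and ULK1 runs from 30.8 CPM in untreated KO1 to 69.7 CPM in KO2+MK.

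Of the 6 lysosomal membrane and cholesterol export proteins tested, MCOLN1 rose and NPC2 fell in MB231-GPS2KO cells. MCOLN1, the calcium channel that TFEB activates, read 11.97, 13.6 and 13.2 CPM in MB231-WT, 18.9, 19.3 and 20.1 in KO1, 18.3, 15.7 and 18.2 in KO2 and 14.0, 12.9 and 12.6 in MB231-myrAKT. All KO libraries were above all MB231-WT and MB231-myrAKT libraries (KO against WT, log2 fold change 0.49, SE 0.0775, adjusted p = 0.000203). NPC2 read 195, 208 and 222 CPM in MB231-WT, 157, 162 and 159 in KO1, 173, 165 and 179 in KO2 and 209.6, 217 and 202 in MB231-myrAKT. It fell in MB231-GPS2KO cells (-0.35, adjusted p = 0.00011), and MB231-myrAKT overlapped MB231-WT (0.00, 95% interval -0.11 to 0.11). NPC1, its membrane partner, gave -0.26 (adjusted p = 0.00116) when the lines were pooled, and passed in KO1 (-0.35) and in KO2 (-0.17) taken singly.

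The abundant membrane glycoproteins LAMP1 and LAMP2 rose in MB231-myrAKT cells. LAMP1 read 220.1, 238 and 241 CPM in MB231-WT, 238, 232 and 236 in KO1, 245, 227 and 234 in KO2 and 283, 276 and 272 in MB231-myrAKT. LAMP2 read 138, 142 and 149 CPM in MB231-WT, 119, 124 and 120.2 in KO1, 130.4, 131 and 130.0 in KO2 and 175, 170.0 and 169 in MB231-myrAKT. The rises were small, 0.24 for LAMP1 and 0.25 for LAMP2 on the log2 scale (adjusted p = 0.000528 and 0.000258), and with the KO lines pooled neither passed (-0.01 and -0.21). Both rises lost their call with a replicate block and on omission of certain single libraries, LAMP1 on most of them. In KO1 taken singly LAMP2 fell (-0.26, adjusted p = 1.34e-05), and in KO2 it gave -0.14 (adjusted p = 0.00508). CD63 gave -0.06 and 0.22 (adjusted p = 0.00197) in turn. Between MB231-GPS2KO and MB231-myrAKT cells all 6 passed the test, MCOLN1 higher and LAMP1, LAMP2, NPC1, NPC2 and CD63 lower in MB231-GPS2KO, against 19.1% higher and 16.7% lower of all genes, with differences between -0.46 and 0.47 on the log2 scale. Of these, MCOLN1 and NPC1 were lost without replicate 2 (adjusted p = 0.00151 and 0.00207) or replicate 3 (adjusted p = 0.00161 and 0.0012) of MB231-myrAKT.

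Among the 4 proton pump subunits ATP6V0D1 stood out. ATP6V0D1, a subunit of the membrane sector, read 53.6, 61.3 and 56.3 CPM in MB231-WT, 78.3, 73.6 and 82.7 in KO1, 89.8, 84.6 and 89.7 in KO2 and 107, 97.9 and 95.9 in MB231-myrAKT. All MB231-WT libraries were the lowest, and it rose in both kinds of cells, by 0.52 with the knockout and 0.81 with the transgene on the log2 scale (adjusted p = 4.67e-05 and 2.42e-08). ATP6V1B2, of the catalytic sector, read 133, 136 and 136 CPM in MB231-WT, 154, 158 and 165 in KO1, 155, 149 and 151 in KO2 and 117, 108 and 102 in MB231-myrAKT. Its KO libraries lay above and its MB231-myrAKT libraries below those of MB231-WT, while KO1 and KO2 overlapped each other. ATP6V1B2 fell in MB231-myrAKT cells (-0.32, adjusted p = 6.36e-05) and gave 0.18 (adjusted p = 0.00112) in the pooled KO lines, with a direct difference of 0.50 (adjusted p = 3.03e-06). Taken singly it rose in KO1 (0.21, adjusted p = 4.08e-05) and in KO2 (0.16, adjusted p = 0.000683). ATP6V1A and ATP6V1H, of the same sector, gave values between -0.03 and 0.13 in the 2 comparisons with MB231-WT and passed in neither.

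Of the 9 autophagy genes, 3 fell and 0 rose in the pooled KO lines, against 16.6% and 15.5% of all genes tested (0 at an unadjusted p under 0.05 in edgeR and 0 by DESeq2). GABARAPL1, which is attached to the growing autophagosome membrane, read 27.9, 28.4 and 29.4 CPM in MB231-WT, 14.1, 14.5 and 13.8 in KO1, 13.03, 11.2 and 11.9 in KO2 and 28.0, 27.5 and 25.7 in MB231-myrAKT. Each KO library held less than each library of the other untreated groups, and GABARAPL1 fell in MB231-GPS2KO cells (-1.15, SE 0.0757, adjusted p = 4.28e-07) but did not pass in MB231-myrAKT cells (-0.08, 95% interval -0.20 to 0.03). WIPI1, which binds phosphoinositides on the forming autophagosome, read 65.8, 62.3 and 65.8 CPM in MB231-WT, 35.96, 37.3 and 34.7 in KO1, 30.97, 29.2 and 30.5 in KO2 and 39.7, 42.6 and 39.1 in MB231-myrAKT. It fell in both, by 0.98 with the knockout and by 0.68 with the transgene on the log2 scale (adjusted p = 8.44e-07 and 3.12e-08). Of its transcript, 25.4% is shared with ARSG on the opposite strand.

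ULK1, the kinase that starts autophagy and that mTORC1 inhibits, read 43.3, 43.1 and 44.9 CPM in MB231-WT, 31.3, 32.9 and 30.8 in KO1, 32.9, 31.0 and 34.5 in KO2 and 48.3, 53.3 and 49.7 in MB231-myrAKT. It fell in MB231-GPS2KO cells (-0.46, adjusted p = 5.27e-06), gave 0.20 (adjusted p = 0.00399) in MB231-myrAKT cells and differed between them (-0.66, adjusted p = 5.17e-07). MAP1LC3B, the best known marker of autophagosomes, read 80.9, 89.2 and 87.7 CPM in MB231-WT, 84.5, 88.8 and 86.9 in KO1, 102, 94.0 and 98.8 in KO2 and 135, 129 and 120.4 in MB231-myrAKT. It rose in MB231-myrAKT cells (0.57, adjusted p = 3.73e-07) and did not pass in MB231-GPS2KO cells, where KO1 overlapped MB231-WT (0.09, adjusted p = 0.247), with 15.7% of its transcript shared with the copy MAP1LC3B2. UVRAG and BECN1, of the lipid kinase complex that nucleates the membrane, fell in MB231-myrAKT cells (-0.37 and -0.23), and 35.6% of the BECN1 transcript lies in the opposite gene CNTD1. SQSTM1 (the receptor p62), ATG9A and ATG14 gave values between -0.10 and 0.04 in both comparisons with MB231-WT and passed in neither. For SQSTM1 the pooled value joins a rise in KO1 (0.20, adjusted p = 0.000746) and -0.13 in KO2 (adjusted p = 0.0313). SQSTM1 and ATG9A share 52.1% and 47.6% of their transcripts with other genes.

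The nutrient sensing genes all passed in MB231-GPS2KO cells, where 4 of 5 rose and 1 fell, against 15.5% and 16.6% of all genes tested. FNIP1, a partner of FLCN, read 95.9, 104 and 101 CPM in MB231-WT, 119.8, 123 and 123 in KO1, 136, 136 and 135 in KO2 and 61.3, 60.95 and 66.9 in MB231-myrAKT. The KO lines stood above and MB231-myrAKT below MB231-WT without overlap, with log2 fold changes of 0.34 (adjusted p = 0.000171) and -0.68 (adjusted p = 7.63e-08) and a direct difference of 1.01 (SE 0.0597, adjusted p = 9.47e-08). FLCN, the activator of RRAGC and RRAGD, and FNIP2 rose by 0.33 and 0.34 in MB231-GPS2KO cells and gave 0.13 and -0.02 in MB231-myrAKT cells, where neither passed. RRAGC and RRAGD are paralogous GTPases, and they moved in opposite directions. RRAGC read 14.2, 15.8 and 15.8 CPM in MB231-WT, 18.4, 20.2 and 18.2 in KO1, 22.4, 20.9 and 20.8 in KO2 and 19.5, 16.04 and 15.8 in MB231-myrAKT, a rise of 0.38 in MB231-GPS2KO cells (adjusted p = 0.000911). RRAGD read 43.6, 45.5 and 44.3 CPM in MB231-WT, 33.6, 35.1 and 33.3 in KO1, 31.8, 30.5 and 31.2 in KO2 and 48.3, 47.3 and 44.04 in MB231-myrAKT, a fall of 0.47 (adjusted p = 8.38e-06). Without replicate 1 of MB231-WT only FLCN of the 4 rises passed, with adjusted p = 0.00214 for FNIP1, 0.00134 for FNIP2 and 0.00773 for RRAGC. FNIP1 was also lost without replicate 3 of MB231-WT (adjusted p = 0.0014), FNIP2 without replicate 2 (adjusted p = 0.00122), and RRAGC on 7 of the 9 omissions of a library (adjusted p between 0.00143 and 0.00773). The RRAGC call was lost as well with 3 other ways of scaling the libraries (adjusted p between 0.00102 and 0.00194) and with at least 10 counts required in every library (adjusted p = 0.00125), and 42.6% of its transcript and 27.9% of that of FLCN also lie in an unnamed gene on the same strand.

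Treatment of MB231-GPS2KO cells with MK2206 for 4 h asked which of these genes respond to AKT inhibition. The controls are labelled untreated and no vehicle is named, so that an effect of the solvent and one of MK2206 cannot be told apart. Of the 37 genes, 9 rose (24.3%, against 12.8% of all genes tested) and 2 fell (5.41%, against 8.75%), with a median log2 fold change of 0.06 against -0.003 over all genes. The rises were in autophagy (ULK1, GABARAPL1, ATG14 and MAP1LC3B) and nutrient sensing (FNIP1, RRAGC, FLCN and FNIP2), with NEU1 as the only hydrolase, and the falls were MITF and NAGLU. No membrane protein or pump subunit passed the test of edgeR (0 of 6 and 0 of 4), and at an unadjusted p under 0.05 there were 2 membrane proteins higher and 1 lower and 1 pump subunit higher, with 0 called by DESeq2. With a fold change of at least 1.5, 2 rose (ULK1 and GABARAPL1) and 1 fell (MITF), against 4.50% and 2.03% of all genes. At an adjusted p of at most 0.05, 15 rose and 4 fell, against 25.1% and 22.2%. NAGLU was lost, leaving 1 fall, on leaving out any 1 of the 3 KO1 or the 3 KO2+MK libraries. These comparisons share the untreated KO libraries with those against MB231-WT.

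ULK1 had the largest change among the members called. It read 60.5, 57.7 and 61.8 CPM in KO1+MK and 67.1, 66.1 and 69.7 CPM in KO2+MK, above every untreated library of any group, and rose by 1.01 on the log2 scale (SE 0.049, adjusted p = 8.51e-09). GABARAPL1 read 21.4, 23.3 and 24.2 CPM in KO1+MK and 23.5, 22.95 and 25.96 CPM in KO2+MK, a rise of 0.87 (adjusted p = 1.88e-07), and lay between the untreated KO and the MB231-WT libraries. ATG14, which directs the lipid kinase complex to autophagy, rose by 0.56 from 36.4 to 52.7 CPM, but 19.6% of its transcript lies in FBXO34, a more abundant gene on the opposite strand. MAP1LC3B read 107, 109.7 and 109 CPM in KO1+MK and 127, 137 and 148 CPM in KO2+MK (0.43, adjusted p = 0.000567). The treated libraries of all 4 genes were above all untreated KO libraries.

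FNIP1 read 159.6, 161 and 152 CPM in KO1+MK and 163, 167 and 175 CPM in KO2+MK, above the untreated KO libraries, and rose by 0.36 (adjusted p = 1.69e-05). RRAGC read 24.1, 25.6 and 24.3 and 22.6, 24.4 and 28.04 CPM in turn and rose by 0.33, FLCN and FNIP2 rose by 0.26 and 0.26, and RRAGD did not pass (-0.06). NEU1 read 66.9, 70.1 and 74.7 CPM in KO1+MK and 73.95, 76.6 and 81.4 CPM in KO2+MK, above all untreated KO libraries and overlapping MB231-myrAKT (0.48, adjusted p = 3.38e-06). Genes that had fallen in MB231-GPS2KO cells and did not pass with MK2206 included CTSB (-0.01, 95% interval -0.10 to 0.09), CTSL (0.02), GAA (0.06), PSAP (0.04) and RRAGD. WIPI1 (0.32, adjusted p = 0.00217) and SQSTM1 (0.35, adjusted p = 0.00297) missed the threshold on the higher side. With the KO line as a covariate all 11 calls were kept, and SQSTM1 (adjusted p = 4.61e-09), WIPI1 (adjusted p = 1.39e-07) and NPC1 (0.14, adjusted p = 0.000111) rose and TFE3 fell as well. With all counts thinned to the depth of the smallest library, 10 of the 11 calls were kept and FNIP2 was lost (adjusted p = 0.00158).

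The response to MK2206 did not differ detectably between the KO lines. A test of the difference between its effect in KO2 and in KO1 called 0 of the 37 genes higher and 0 lower (0.0128% and 0% of all genes tested by edgeR), DESeq2 called 0 as well, and 4 had an unadjusted p under 0.05. The smallest adjusted p was 0.36, for GABARAPL1, which changed by 0.73 in KO1 and 1.02 in KO2 on the log2 scale. For ULK1 the changes were 0.95 and 1.06, a difference of 0.12 with a 95% interval of -0.02 to 0.25. For MITF they were -0.63 and -0.57 (difference 0.07, interval -0.09 to 0.22).

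Between the untreated KO lines 4 genes were higher in KO1 (PSAP, NAGLU, SQSTM1 and WIPI1) and 3 were lower (NPC1, MAP1LC3B and FNIP1), against 7.06% and 5.54% of all genes tested. None of the 7 differed by 1.5-fold (0 higher and 0 lower, against 1.87% and 0.744% of all genes), and at an adjusted p of at most 0.05 the counts were 11 and 9, against 18.0% and 16.2%. SQSTM1 read 467, 454 and 461 CPM in KO1, 363, 347 and 376 in KO2 and 367, 424 and 396 in MB231-WT. KO1 lay above all MB231-WT libraries and KO2 overlapped them, and pooling them gave 0.04 (SE 0.1) against MB231-WT. Leaving out any 1 of the 6 libraries left 1 to 2 genes higher in KO1 rather than 4, and 0 to 5 lower rather than 3.

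Genes of the same pathways outside the set, 143 of them tested, gave 17 rises and 38 falls in MB231-GPS2KO cells (11.9% and 26.6%, against 15.5% and 16.6% of all genes tested). They gave 26 rises and 25 falls in MB231-myrAKT cells (18.2% and 17.5%, against 12.7% and 17.3%) and 28 rises and 4 falls with MK2206 (19.6% and 2.8%, against 12.8% and 8.75%). In what follows, the genes with the largest rise or fall are those among the genes called. Among 37 other lysosomal hydrolases, 2 rose and 16 fell in MB231-GPS2KO cells (5.41% and 43.2%, against 15.5% and 16.6% of all genes, median log2 fold change -0.278). In MB231-myrAKT cells 10 rose and 7 fell (27% and 18.9%, against 12.7% and 17.3%, median 0.051). CTSS, a cysteine protease of antigen presentation, fell most in MB231-GPS2KO cells, from 5.11, 6.02 and 5.17 CPM in MB231-WT to 3.11, 3.08 and 3.05 in KO1 and 2.29, 1.91 and 1.96 in KO2 (-1.10, adjusted p = 0.000153), while it read 9.18, 8.76 and 8.58 CPM in MB231-myrAKT and rose there (0.70). ARSB, an arylsulfatase, had the largest rise called in MB231-GPS2KO cells (0.29, adjusted p = 0.00085), a call lost under 5 alternatives (adjusted p between 0.00104 and 0.00268) and on leaving out single libraries. GALC, which degrades galactosylceramide, fell most in MB231-myrAKT cells, from 43.7, 40.2 and 41.8 to 8.55, 9.50 and 7.52 CPM (-2.31, adjusted p = 1.06e-11), and GALNS, a sulfatase, rose most (0.72). MK2206 gave 6 rises and 1 fall among these hydrolases (16.2% and 2.7%, against 12.8% and 8.75% of all genes), with the largest rise in CTSK (1.23), a low gene at 0.949, 0.839 and 0.692 CPM in KO1 and 1.92, 1.82 and 1.65 in KO1+MK, and a fall in SGSH (-0.25).

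Of 23 other membrane and sorting genes, 3 rose and 6 fell in MB231-GPS2KO cells (13% and 26.1%, against 15.5% and 16.6% of all genes), with CTNS, the cystine exporter, at 0.51 and LAMP3 at -1.36. In MB231-myrAKT cells 5 rose and 4 fell (21.7% and 17.4%, against 12.7% and 17.3%), with LAPTM5 at 0.68 and LAMP3 at -2.15. MK2206 raised 2 of them, OSTM1 by 0.29 and GNPTAB by 0.17 (8.7%, against 12.8% of all genes), and lowered 0 by the edgeR test, with 1 lower at an unadjusted p under 0.05 and 0 by DESeq2. Both rises were lost with upper quartile scaling (adjusted p = 0.00168 and 0.00182) and with no filter (adjusted p = 0.00177 and 0.0268). That of OSTM1 was also lost with thinned counts (adjusted p = 0.00169) and on leaving out single libraries (adjusted p up to 0.00239). Of 13 other pump subunits, 3 rose and 2 fell in MB231-GPS2KO cells (23.1% and 15.4%, against 15.5% and 16.6% of all genes), with ATP6V0A2 at 0.47 and ATP6AP2 at -0.46. In MB231-myrAKT cells 3 rose and 3 fell (23.1% each, against 12.7% and 17.3%), with ATP6V0B at 0.44 and TCIRG1 at -0.40, and the TCIRG1 call was lost with upper quartile scaling (adjusted p = 0.00296) and library totals (adjusted p = 0.00337), and on leaving out any 1 of the 3 MB231-myrAKT libraries (adjusted p = 0.00345, 0.00165 and 0.0019). Of these subunits 0 passed the edgeR test with MK2206, where 6 were higher and 1 was lower at an unadjusted p under 0.05 and DESeq2 called 1. Of 43 other autophagy genes, 3 rose and 11 fell in MB231-GPS2KO cells (6.98% and 25.6%, against 15.5% and 16.6% of all genes). In MB231-myrAKT cells 6 rose and 9 fell (14% and 20.9%, against 12.7% and 17.3%). With MK2206 15 rose (34.9%, against 12.8%) and 0 fell by the edgeR test, with 1 lower at an unadjusted p under 0.05 and 0 by DESeq2 (median log2 fold change 0.142).

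Among these, NBR1, a receptor for ubiquitylated cargo, read 329, 321 and 326 CPM in MB231-WT, 199.9, 209.7 and 202 in KO1 and 198, 190.2 and 204 in KO2, the largest fall in MB231-GPS2KO cells among the genes called (-0.72, adjusted p = 7.64e-08). VPS18, of the complexes that tether vesicles to lysosomes, had the largest rise called there (0.75). RB1CC1, a scaffold of the ULK1 complex, had the largest rise called with MK2206 (0.49, adjusted p = 3.54e-06), while TP53INP1 gave 0.86 and did not pass (adjusted p = 0.00103). ULK2, the paralog of ULK1, fell most in MB231-myrAKT cells (-2.52), at 7.19, 5.39 and 5.79 CPM in MB231-WT, 0.934, 1.19 and 1.09 in MB231-myrAKT, 3.90, 3.98 and 3.02 in KO1 and 0.688, 0.464 and 0.464 in KO2, and KO1 and KO2 did not overlap. Pooled, the KO lines gave -1.57 for ULK2 and did not pass (adjusted p = 0.0306). TP53INP1, which binds autophagosomal proteins, rose most in MB231-myrAKT cells (1.11).

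Of 27 other genes listed with nutrient sensing, TFEC among them, 6 rose and 3 fell in MB231-GPS2KO cells (22.2% and 11.1%, against 15.5% and 16.6% of all genes). In MB231-myrAKT cells 2 rose and 2 fell (7.41% each, against 12.7% and 17.3%), and with MK2206 5 rose and 3 fell (18.5% and 11.1%, against 12.8% and 8.75%). CASTOR1, the arginine sensor, read 1.23, 1.10 and 1.43 CPM in MB231-WT, 0.606, 0.595 and 0.360 in KO1 and 0.315, 0.438 and 0.491 in KO2 (-1.43). Of these libraries only those of MB231-WT reached the 1 CPM of the filter, so this fall is not free of the filter. ITFG2, of the KICSTOR complex, had the largest rise among the genes called in MB231-GPS2KO cells (0.64). SESN3, a sestrin that restrains mTORC1 and that FoxO factors activate, read 5.90, 5.66 and 6.57 CPM in MB231-WT, 5.33, 5.63 and 6.17 in KO1, 13.6, 13.8 and 12.6 in KO2, 44.4, 46.3 and 46.3 in MB231-myrAKT, 25.7, 19.5 and 21.6 in KO1+MK and 33.4, 41.9 and 49.5 in KO2+MK. It rose most both in MB231-myrAKT cells (2.91, adjusted p = 4.78e-13) and with MK2206 (1.77, adjusted p = 0.000245). TFEC, the remaining gene of the TFE family, had 18 to 27 counts in each MB231-WT library and 1 to 2 in each MB231-myrAKT library, a ratio of 0.0633 with an exact 95% interval of 0.0168 to 0.17 for counting error only. With MK2206 it gave -0.97 (adjusted p = 0.000462), a call lost with counts thinned to 1 depth (adjusted p = 0.00218) and on 9 of the 12 omissions of single libraries. No MB231-WT or MB231-myrAKT library reached 1 CPM for TFEC, so it passed the filter only through KO libraries. As it was higher in untreated KO cells, its fall with MK2206 is not free of that filter.

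**Figure D5:**
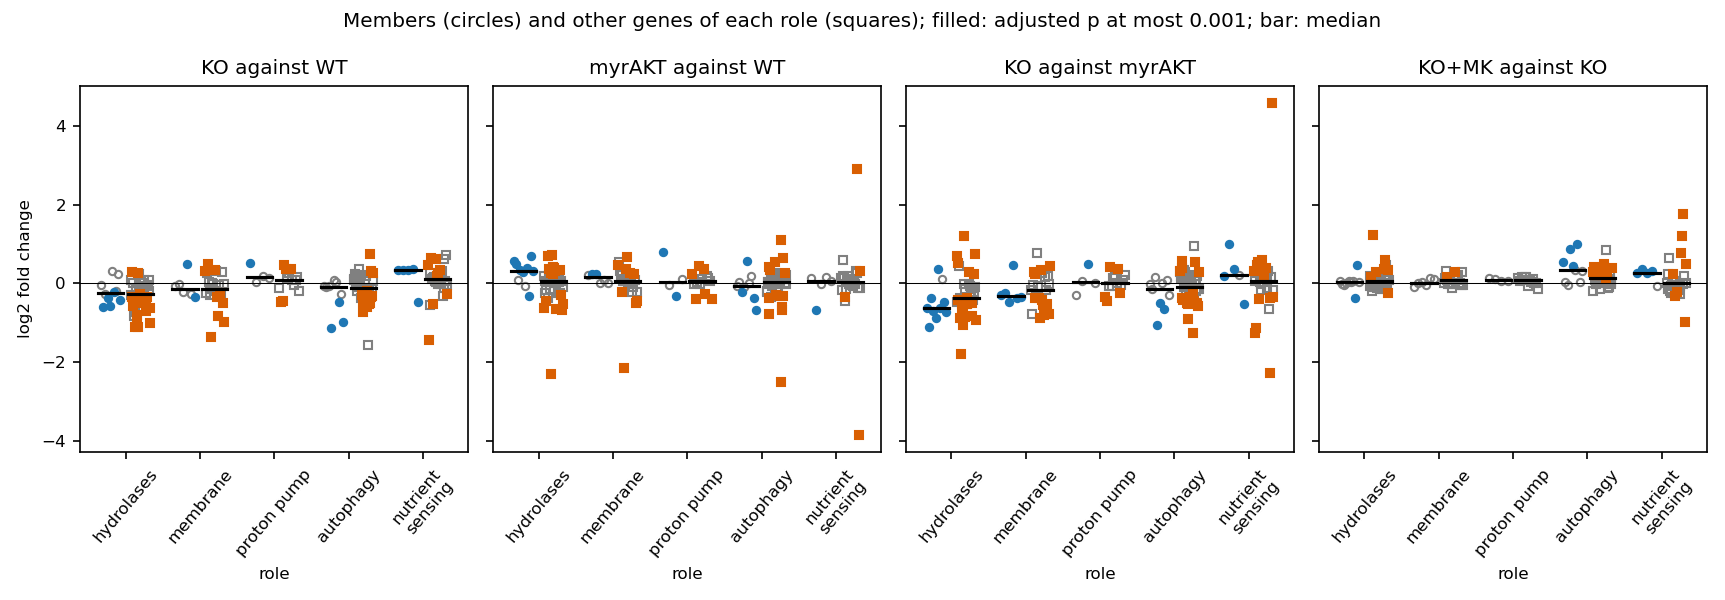
Log2 fold change of each gene by role in 4 comparisons, for the 34 members of 5 roles (circles) and the 143 other pathway genes (squares), filled where the adjusted p was at most 0.001, with a bar at the median of each set. The medians of the hydrolases lie below 0 in MB231-GPS2KO cells (-0.242 and -0.278), and those of the autophagy genes above 0 with MK2206 (0.349 and 0.142).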

How the data were processed

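Total RNA was sequenced from 18 libraries, 3 in each of 6 groups, as ribosomal RNA depleted, 75-base paired-end reads. Per the labels and the methods of the study, the authors trimmed reads with Trim Galore, aligned them to hg38 with HISAT2 and counted them per gene with featureCounts, and the deposited table holds raw counts, not normalized. Tool versions, the gene annotation, the strand setting and the treatment of reads shared by several genes were not given in the sources used here, so counts of overlapping genes and near-identical copies are uncertain.

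A gene was tested where 3 or more of the 18 libraries reached 1 CPM, with counts taken relative to library totals, which left 15587 genes. Intervals of fold changes use the t distribution with the degrees of freedom of the fit. edgeR 4.0.16 (R 4.3.3) with trimmed mean of M-values scaling and the quasi-likelihood test was fitted per comparison on the libraries concerned, and p-values were adjusted by Benjamini-Hochberg over all genes. A gene was called at an adjusted p of at most 0.001. Errors are SD for levels and SE for log2 fold changes. The code of the fit was tried on simulated data with known changes, drawn with the spread of these libraries. That does not test whether the model holds for them. Genome coordinates and transcript overlaps are from GENCODE release 44, and promoter sequences from RefSeq on GRCh38.p14.

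The members and all gene lists were chosen with earlier results of these data known. Members with values per library were the TFE family, GPNMB and the called genes with the largest changes of each role in each main comparison, whichever their direction. SQSTM1 was added. In the lists of other genes, the largest rise and the largest fall called were named. Of 206 listed genes, 205 were matched by symbol and TMEM55B was not. The alternatives tried were DESeq2 1.42.0, 3 other scalings, 2 other filters, 2 other call rules, a replicate block, 1 fit over all 18 libraries, line as a covariate, KO1 and KO2 as separate groups, omission of single libraries and, chosen after seeing the data, counts thinned to 1 depth.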

Additional observations from a re-analysis of the deposited data

Results flagged for a closer look

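The untreated KO1 and KO2 lines, made with different sgRNA sets, differed in 7 of the genes by the edgeR test between them, with an adjusted p of at most 0.001. On the log2 scale the difference, KO1 minus KO2, was 0.336 for SQSTM1 (adjusted p = 5.41e-07), 0.241 for WIPI1 (adjusted p = 0.000511), 0.239 for NAGLU (adjusted p = 0.000813) and 0.169 for PSAP (adjusted p = 0.000986). It was -0.188 for MAP1LC3B (adjusted p = 0.000392), -0.182 for NPC1 (adjusted p = 0.000165) and -0.168 for FNIP1 (adjusted p = 0.000221). Groups of 3 libraries are too small for the check of single outlying libraries.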

How the results depend on the processing

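No call turned its direction under any alternative. With a fold change of at least 1.5 added, the members higher and lower were 0 and 4 for KO against WT, 0 and 3 for KO1, 1 and 5 for KO2, 2 and 2 for myrAKT, 2 and 1 for MK2206, 0 and 0 for KO1 against KO2, and 2 and 9 for KO against myrAKT. At an adjusted p of at most 0.05, 11 were higher for KO against WT, 15 and 4 for MK2206, and 11 and 9 for KO1 against KO2. Between KO1 and KO2, 2 were higher with upper quartile scaling, library totals or all 18 libraries in 1 fit, and 1 (no filter) or 0 (18 libraries) were lower. The share of higher calls there, 57.1%, was 33.3% with upper quartile scaling or library totals.

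Omitting single libraries gave 3 to 8 higher and 8 to 11 lower for KO against WT, 8 to 10 and 12 to 15 for KO1, 6 to 8 and 11 to 18 for KO2, 7 to 11 and 5 to 7 for myrAKT, 6 to 9 and 1 to 2 for MK2206, 1 to 2 and 0 to 5 for KO1 against KO2, 4 to 6 and 17 to 18 for KO against myrAKT, and 0 throughout for the difference in MK2206 effect. The members lost on 1 or more omissions were FNIP1, FNIP2, HEXA, MCOLN1, NPC2, PSAP and RRAGC for KO against WT (adjusted p up to 0.0101, HEXA on 8 of 9 omissions), BECN1, GAA, LAMP1, LAMP2, NAGLU and PSAP for myrAKT (up to 0.00557, LAMP1 on 5 of 6), FNIP2, MAP1LC3B, NAGLU and RRAGC for MK2206 (up to 0.00477, FNIP2 on 11 of 12), FLCN, GLA, MCOLN1 and NPC1 for KO against myrAKT (up to 0.00531), SQSTM1 for KO1 (up to 0.00545), ATP6V1B2, HEXA, MCOLN1, NEU1, NPC1 and NPC2 for KO2 (up to 0.0104), and all but SQSTM1 of the 7 between KO1 and KO2 (up to 0.00561). Same-numbered replicates showed no common deviation, with 12 of 45 pairs over a correlation of 0.1 and a range of -0.518 to 0.297. With 3 libraries per group this check cannot exclude that the numbers pair samples. The main tests used no pairing. With a replicate block, 4 were higher for KO against WT and 1 was lower for MK2206, and 13 of 18, 15 of 18 and 7 of 11 calls were kept for KO against WT, myrAKT and MK2206. The calls it ended were MCOLN1, FNIP1, RRAGC, HEXA and PSAP (adjusted p = 0.00105, 0.00101, 0.00361, 0.0037 and 0.00116) for KO against WT, LAMP1, LAMP2 and BECN1 (adjusted p = 0.00209, 0.00105 and 0.00215) for myrAKT, and MAP1LC3B, FNIP2, RRAGC and NAGLU (adjusted p = 0.00191, 0.00301, 0.00199 and 0.00216) for MK2206. Among the other genes named, the block also ended the calls of CTSS (adjusted p = 0.00107) and ARSB (adjusted p = 0.00268) for KO against WT and of SESN3 (adjusted p = 0.00105) and OSTM1 (adjusted p = 0.00128) for MK2206. The calls of CTSS and CASTOR1 for KO against WT were lost without replicate 2 (adjusted p = 0.00159) and replicate 3 (adjusted p = 0.00144) of MB231-WT in turn. With KO1 and KO2 as separate groups 10 were higher and 16 lower for KO against WT, and with line as a covariate 12 and 3 for MK2206, each keeping all earlier calls. Shares of all genes called were not counted for these fits. Levels per kb of the longest transcript were 25.1 for TFE3, 12.7 for MITF and 1.72 for TFEB, in the same order. The causes were not tested.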
